A study of Mus musculus with 12 samples.

Results

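Clec9a gfp/gfp cells are cultured dendritic cells of the cDC1 kind that lack DNGR-1, and their response to dead cells was read from 6 of the series' 12 expression arrays. The cells were CD8α+-like dendritic cells from C57BL/6 bone marrow, cultured with 100 ng/ml of Flt3 ligand over 10 days and sorted as CD24-high, CD11b-low and B220-negative, per the series' design text and the labels. The first group (3 arrays, called exposed cells below) was Clec9a gfp/gfp, kept for 5 h with dead cells added at a ratio of 1 to 2. Before use, these had been killed by UVC light (240 mJ/cm2) and cultured for 24 h. The second group (3 arrays, called untreated cells) was Clec9a gfp/gfp, with no treatment and a labelled time of 0 h, so that dead cells and 5 h of further culture cannot be told apart. The other 6 arrays held WT C57BL/6 cells under the same treatments, 3 per group, and serve here only as a comparison. All groups came from cultures made with Flt3 ligand, which models dendritic cells outside the animal. The Clec9a gfp allele is carried in the germ line on both chromosomes, so that every cell of a Clec9a gfp/gfp culture has it. Whether replicates stem from separate cultures or mice is not in the labels, and p-values here cover the spread between these arrays only.

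Conventional type 1 dendritic cells (cDC1) take up dying cells and present their antigens to CD8 T cells, a process called cross-presentation. DNGR-1, the product of Clec9a, is a lectin of the cDC1 surface that recognises filamentous actin laid bare in dead cells and signals through the kinase Syk. Dead cells also carry nucleic acids and other ligands of Toll-like receptors and cytosolic sensors, which can start interferon production, NF-kB activity and the maturation of a dendritic cell. Maturing dendritic cells are known to trade uptake for presentation, costimulation and migration to lymph nodes.

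Clec9a itself was at the bottom of the scale in these cells. Its intensity was 1.38, 3.99 and 0.59 on the 3 arrays of exposed cells and 4.16, 0.00864 and 3.88 on the 3 of untreated cells. The groups overlapped and all 6 values lay below 16, the number added to every intensity before the log2. On the scale of log2(value + 16) the change was -0.05 ± 0.11 (SE, adjusted p = 0.738), so no response of Clec9a was measurable. WT cells had 1496, 1372 and 1471 with dead cells and 2646, 2648 and 2581 untreated, far above both Clec9a gfp/gfp groups. All fold changes below are on this log2(value + 16) scale, exposed over untreated, and understate the change of dim genes. Errors on them are standard errors of the linear model (limma), and a gene is said to have risen or fallen only at an adjusted p under 0.05. Each gene is one probe set, so its values are compared between arrays and never with those of another gene.

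The cDC1 label was checked against 12 measured markers, of which 0 rose, also at an unadjusted p under 0.05 in limma, and 9 fell. Clec9a is counted among the 12, and its level below 16 on all arrays of both groups follows from the genotype, so it cannot check the label. Xcr1, the chemokine receptor that defines these cells, had 2399, 2354 and 2327 in exposed and 3357, 2932 and 3699 in untreated cells, bright in both. Irf8, the lineage's master transcription factor, had 3960, 3377 and 3801 in exposed and 8185, 8580 and 8892 in untreated cells. Both were present on every array, and the groups did not overlap for either. Cadm1, an adhesion molecule of cDC1 (0.08, adjusted p = 0.531), and Id2, an inhibitor of rival lineage factors (0.19, adjusted p = 0.142), did not pass the test, though both did after all arrays were shifted to one median (0.32 for Cadm1 and 0.43 for Id2). The summed level of the 12 markers was 27104 to 27471 in exposed and 57049 to 64908 in untreated cells.

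Markers of other cells moved with the treatment too. Of 15 measured macrophage and monocyte markers 13 fell and 1 rose, and their summed level was 1485 to 1960 in exposed against 17959 to 19706 in untreated cells. Of 19 fibroblast and stromal markers 16 fell and 0 rose, with sums of 2595 to 3577 in exposed and 14669 to 22779 in untreated cells. Of 9 cDC2 markers 6 fell and 1 rose, with sums of 1187 to 1263 in exposed and 6406 to 8723 in untreated cells. Both groups stayed apart in these 3 lists. Of 12 mast cell, basophil and eosinophil markers 6 fell and 1 rose (sums 1325 to 1471 in exposed and 4538 to 5213 in untreated cells). Of 11 neutrophil markers 7 fell, with sums of 914 to 980 in exposed and 1826 to 21337 in untreated cells. That wide range came from S100a8, named after its values were seen, which had 313, 379 and 289 in exposed and 10247, 310 and 19200 in untreated cells, so that the second untreated array lay with the exposed ones. Its change of -3.56 ± 1.14 (adjusted p = 0.0237) lost its call without the first (adjusted p = 0.0886) or the third (adjusted p = 0.0934) untreated array, or without the first (0.0571) or the third (0.0599) exposed one, and also after quantile normalization (adjusted p = 0.0522) and in a fit of the 6 Clec9a gfp/gfp arrays alone (adjusted p = 0.0897). B cell markers fell in 3 of 7 (sums 501 to 582 in exposed and 871 to 1932 in untreated cells), and T and NK cell markers rose in 3 and fell in 2 of 12 (sums 1096 to 1236 in exposed and 666 to 810 in untreated cells). The largest rise of the T and NK list was that of Cd8a (2.24), which is also a cDC1 identity gene below. Of 9 plasmacytoid markers 4 rose and 4 fell (sums 14091 to 14726 in exposed and 6472 to 7953 in untreated cells). Their higher sum came mainly from Irf7, an interferon response gene below, which averaged 7394 in exposed and 292 in untreated cells. The median log2 change of the plasmacytoid list was -0.34. Of 8 erythroid and megakaryocyte markers 1 rose and 1 fell (sums 519 to 581 in exposed and 1192 to 1592 in untreated cells). Below 16 on all 3 exposed arrays were Clec4a4 of the cDC2 list, Ngp and Mmp8 of the neutrophil list, Cpa3 and Fcer1a of the mast cell list and Gzmb of the NK cell list, and of these Clec4a4 was below 16 on all untreated arrays too (named after their values were seen). Every macrophage, stromal, plasmacytoid, B cell and erythroid marker was above 16 on at least 1 array of each group. In sorted bulk cells, fewer cells of a type and less RNA per cell cannot be told apart, and the part of other cells, dead ones included, in the falls below was not tested.

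**Figure D1:**
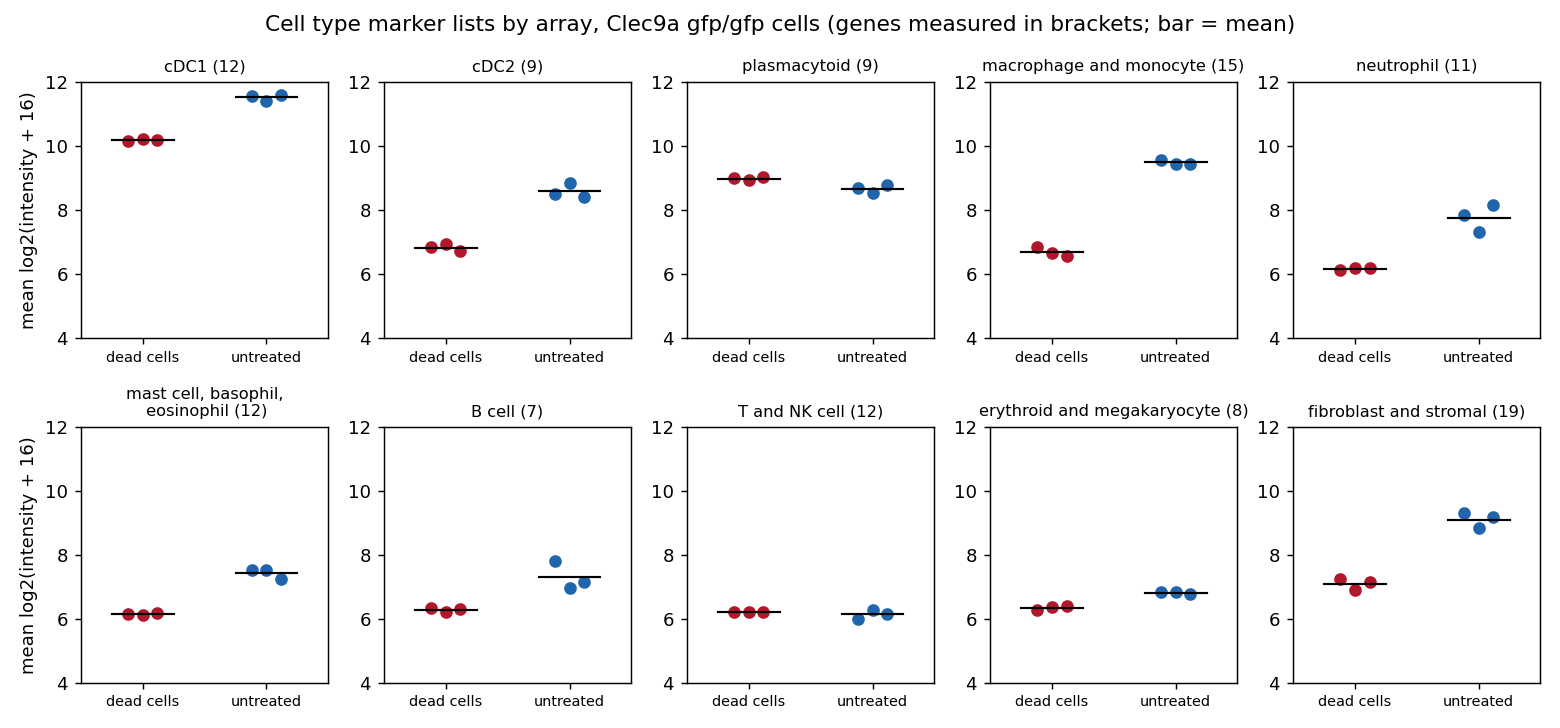
Mean log2(intensity + 16) of 10 cell type marker lists on each array of Clec9a gfp/gfp cells, exposed cells on the left of each panel and untreated cells on the right, with 3 points per group and a bar at their mean. The means of the 15 macrophage and monocyte markers and of the 19 stromal markers lie lower on all 3 exposed arrays. The mean of the 12 cDC1 markers, which include Clec9a at background, stays high in both groups while lying lower in exposed cells.

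Of 14807 genes with 1 gene symbol, 2989 (20.2%) rose and 5936 (40.1%) fell in exposed cells, and 5882 passed no test. The median log2 fold change of all these genes was -0.08. At 2-fold or more, 635 genes rose and 3754 fell, and at 8-fold or more 89 rose and 132 fell. The 2 groups did not overlap for 3871 genes (26.1%) that were higher and 6214 (42.0%) that were lower in exposed cells. Over all 23238 rows, 3856 were higher and 7457 lower, which makes 34.1% of the calls higher. After quantile normalization 6622 were higher and 5645 lower (54.0% higher), and after a shift of all arrays to one median 7454 and 6421 (53.7% higher), with the median of all rows at 0.10 and 0.19 in place of -0.05. The balance of rises and falls depended on the scaling, and small changes are to be read against those medians. Counts in the gene lists below are to be read against the 20.2% and 40.1% of all genes that rose and fell.

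The arrays themselves differed in their upper part. The median intensity was 77.9 to 83.6 in exposed and 93.6 to 101 in untreated cells, and the upper quartile was 231 to 259 in exposed and 400 to 437 in untreated cells. The lower quartile was 30.3 to 33.8 in exposed and 30.9 to 34.7 in untreated cells. When rows were ordered by mean level, 2.37% rose and 2.11% fell in the dimmest of 10 equal bins, 15.4% rose and 64.9% fell in bin 8 (intensity 232 to 417), and 27.1% rose and 48.8% fell in the brightest. After quantile normalization bin 8 held 36.8% rises and 41.3% falls. Log2 values correlated across rows at 0.976 to 0.978 among exposed arrays, 0.977 to 0.987 among untreated arrays and 0.862 to 0.883 between the groups. Genes are not independent replicates.

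**Figure D2:**
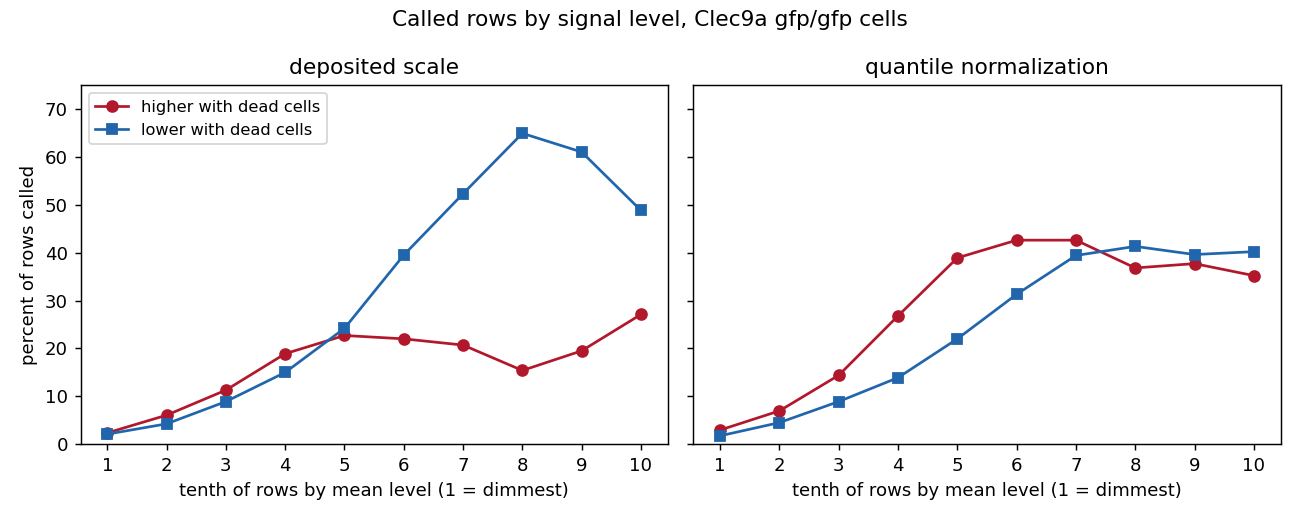
Percent of rows called higher (red circles) and lower (blue squares) in exposed Clec9a gfp/gfp cells, for 10 equal bins of all 23238 rows ordered by mean level over the 12 arrays. On the deposited scale (left) falls reach 64.9% of bin 8, and after quantile normalization (right) rises and falls lie closer together there, at 36.8% and 41.3%.

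Several genes of nucleic acid sensors rose, while the adaptor genes Sting1 and Mavs fell. Of 22 measured interferon genes, receptors and nucleic acid sensors 12 rose and 4 fell, with a median of 0.44 against -0.08 for all genes. Ifih1, which encodes the cytosolic RNA sensor MDA5, had 2602, 2854 and 2607 in exposed and 169, 133 and 195 in untreated cells, a log2 change of 3.91 ± 0.12 (adjusted p = 4.63e-09). Ddx58 (RIG-I, also an RNA sensor) changed by 3.65, Zbp1 (a sensor of Z-form nucleic acid) by 3.64 and Dhx58 (LGP2, a regulator of both RNA sensors) by 2.68. Sting1, the adaptor of cytosolic DNA sensing, had 693, 653 and 720 in exposed and 3343, 3016 and 3208 in untreated cells (-2.18 ± 0.10), and Mavs, the adaptor of the RNA sensors, changed by -1.99. The receptor genes Ifngr1 (-2.56) and Ifnar2 (-0.63) also fell. Ifnb1, the gene of interferon beta, had 164, 106 and 112 in exposed and 76.2, 90 and 78 in untreated cells. The groups did not overlap, and its change of 0.54 ± 0.20 passed the test narrowly (adjusted p = 0.049). Without the first exposed array it was 0.36 (adjusted p = 0.182), without the third exposed array the adjusted p was 0.0595, and without the first, the second or the third untreated one it was 0.119, 0.0606 or 0.113. The call was also lost with the replicate number as a block (adjusted p = 0.0729), without a pseudocount (adjusted p = 0.0596) and with a pseudocount of 1 (adjusted p = 0.0562). Ifna4 (0.27, adjusted p = 0.254) and the DNA sensor gene Cgas (0.23, adjusted p = 0.104) did not pass, though after quantile normalization Cgas did (0.92) and after the shift to one median both did (0.51 for Ifna4 and 0.46 for Cgas).

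Antiviral effectors held the 3 largest rises of all named genes, Rsad2, Oasl1 and Ifit2. Of 35 measured members 33 rose and 1 fell, with a median of 2.53. Rsad2, the antiviral enzyme viperin, had 8788, 8942 and 7292 in exposed and 33.6, 47.2 and 37.4 in untreated cells. Every exposed array was above every untreated one, with a change of 7.24 ± 0.14 (adjusted p = 3.49e-10). Oasl1, which restrains the translation of Irf7 in mice, had 11080, 10400 and 10599 in exposed and 67.1, 75 and 69.7 in untreated cells (6.95 ± 0.10). Ifit2 and Ifit1, which bind viral RNA and hinder its translation, changed by 6.87 ± 0.30 and 6.36 ± 0.31. Cmpk2, a mitochondrial nucleotide kinase next to Rsad2 in the genome, changed by 5.36. Epsti1 was the one member that fell (-0.39, adjusted p = 0.0139), and after quantile normalization its change was 0.16 (adjusted p = 0.19). Its call was also lost after the shift to one median (adjusted p = 0.241), in a fit of the 6 Clec9a gfp/gfp arrays alone (adjusted p = 0.0618) and without the second exposed (adjusted p = 0.0587) or the third untreated array (adjusted p = 0.061). All 7 measured interferon-inducible GTPases, which attack the membranes around pathogens, rose with a median of 2.57. Gbp5 led with 4105, 3949 and 2780 in exposed against 98.1, 62.8 and 51.8 in untreated cells (5.40 ± 0.20), followed by Gbp2 (3.67), Tgtp1 (3.48) and Gbp3 (2.57).

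The start regions of these genes are shown because the interferon-stimulated response element is the DNA motif through which interferon signalling is known to act. Its core, written GAAANNGAA, was searched on both strands of RefSeq promoters (GRCm38.p6, 250 bases before to 50 after the gene start). It was in 9.76% of the 27025 genes of that table and in 8.99% of the 11855 of them with a row on the array. It was in 10 of 28 matched antiviral effectors (35.7%), in all 6 matched GTPases and in 10 of 44 matched genes among the 50 largest rises (22.7%). Among 42 matched genes of the 50 largest falls it was in 4 (9.52%). Shown are the 250 bases before the start, 5′ to 3′ along the gene, with the motif or its reverse complement in capitals; the promoters printed here and below were picked among list members that hold their list's motif, with the genes' values known. Rsad2 is at chr12:26456453-26456702 on the minus strand, Ifit1 at chr19:34640639-34640888 and Gbp5 at chr3:142496684-142496933, both on the plus strand. In Ifit1, 2 of the 3 matches overlap. A match describes letters only and is no evidence of a bound factor.
Rsad2: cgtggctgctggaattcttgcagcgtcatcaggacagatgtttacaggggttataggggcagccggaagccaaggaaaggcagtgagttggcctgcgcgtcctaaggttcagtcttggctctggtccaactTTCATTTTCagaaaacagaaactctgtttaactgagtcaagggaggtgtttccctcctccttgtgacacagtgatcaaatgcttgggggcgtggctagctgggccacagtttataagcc
Ifit1: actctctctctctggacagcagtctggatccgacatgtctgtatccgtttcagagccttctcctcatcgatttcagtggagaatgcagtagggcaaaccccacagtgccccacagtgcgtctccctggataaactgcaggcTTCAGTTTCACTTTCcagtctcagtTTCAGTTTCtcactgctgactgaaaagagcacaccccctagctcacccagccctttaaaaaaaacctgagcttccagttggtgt
Gbp5: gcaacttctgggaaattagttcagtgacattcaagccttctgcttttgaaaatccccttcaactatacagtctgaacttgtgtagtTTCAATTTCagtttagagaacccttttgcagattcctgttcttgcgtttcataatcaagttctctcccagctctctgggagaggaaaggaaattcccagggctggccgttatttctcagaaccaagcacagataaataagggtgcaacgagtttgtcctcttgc

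Transcription factors of the interferon and cytokine response mostly rose. Of 27 measured IRF and STAT genes and SOCS inhibitors 20 rose and 3 fell (median 0.78). Irf7, the amplifier of interferon production, averaged 7394 ± 446 in exposed and 292 ± 36.2 in untreated cells (SD, n = 3 each), with the groups far apart (limma, 4.59 ± 0.10, adjusted p = 5e-10). Cish, an inhibitor of STAT signalling, changed by 3.82, Stat5a, a factor switched on by cytokine receptors, by 3.23, and Socs2 by 2.65. Irf4, better known from the cDC2 lineage, also rose, with 278, 258 and 349 in exposed and 79.9, 62.6 and 73.2 in untreated cells (1.82 ± 0.21). The members that fell were Irf8 (-1.20), Irf3, which relays the nucleic acid sensors (-1.09), and Socs6 (-1.30).

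Chemokine ligands rose in 12 and fell in 7 of 30 measured genes, with a median of 0.20. The 3 interferon-induced ligands of CXCR3, which draw activated T and NK cells, all rose. Cxcl11 had 1809, 3536 and 1421 in exposed and 4.81, 11 and 9 in untreated cells, so that it was at background in every untreated array and bright in every exposed one (6.45 ± 0.29, adjusted p = 2.2e-08). Cxcl10 had 10061, 12014 and 8868 in exposed and 413, 612 and 465 in untreated cells (4.34 ± 0.17). Cxcl9 had 2674, 3888 and 2705 in exposed and 216, 128 and 141 in untreated cells (4.14 ± 0.23). For both, the exposed arrays were all above the untreated ones. Ccl22, which draws regulatory and helper T cells through CCR4, changed by 3.87. The falls were led by Pf4, the platelet factor (-3.67), and Cxcl12, a stromal ligand (-2.96), followed by the monocyte attractants Ccl12 (-2.35) and Ccl8 (-2.22). Pf4 stands in the megakaryocyte marker list and Cxcl12 in the stromal list, whose sums were given above.

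Receptors of chemokines and other migration signals fell more often than they rose, with 6 rises and 16 falls among 29 (median -0.64). Ccr7, which guides mature dendritic cells to lymph nodes, had 12254, 11164 and 12170 in exposed and 564, 936 and 984 in untreated cells (3.85 ± 0.18, adjusted p = 2.7e-08). Cxcr5 (1.22), which guides cells to B cell follicles, and S1pr3 (1.21), a receptor of sphingosine phosphate, were the next largest rises. Cxcr3, the receptor of the 3 ligands above and expressed by untreated cDC1, had 113, 110 and 130 in exposed and 2813, 2318 and 2604 in untreated cells. The exposed values were all lower, with a change of -4.28 ± 0.20 (adjusted p = 2.69e-08). Other falls were the adenosine receptor gene Adora3 (-4.01), the complement receptor gene C3ar1 (-3.92), the fractalkine receptor gene Cx3cr1 (-3.15) and, by a small margin, Xcr1 (-0.49, adjusted p = 0.00206). After the shift to one median Xcr1 was at -0.25 and passed no test (adjusted p = 0.0619).

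Cytokine genes rose in 16 and fell in 8 of 38 (median 0.20). Il6, an inflammatory cytokine, had 1181, 1629 and 1122 in exposed and 34.6, 15.6 and 16.7 in untreated cells (5.13 ± 0.20, adjusted p = 1.1e-08). Il15, a growth factor of NK and memory CD8 T cells, had 1494, 1676 and 1445 in exposed and 77.2, 67.9 and 93.5 in untreated cells (4.03 ± 0.16). Il12b, the shared subunit of IL-12 and IL-23, had 12705, 11479 and 12864 in exposed and 728, 1636 and 1036 in untreated cells (3.50 ± 0.24). In all 3 the groups were apart. Il12a, the other subunit of IL-12, had 104, 101 and 116 in exposed and 96.7, 109 and 111 in untreated cells. Its groups overlapped, and its change of 0.01 ± 0.12 did not pass the test (adjusted p = 0.936), while after quantile normalization it was 0.37 (adjusted p = 0.0274). Vegfa, a vessel growth factor (2.51), Tnf (1.64 ± 0.23) and Il1b (1.10 ± 0.15) rose as well. The anti-inflammatory Il10 (-0.10, adjusted p = 0.703) passed no test, and Il16 (-3.36), a ligand of CD4, fell the most.

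The Il6 promoter holds a well known NF-kB site close to the gene start and is shown for it. The motif GGANNTTCC, searched on both strands, was in 4.86% of the 27025 genes and in 5.15% of the 11855 with a row on the array. It was in 8 of 26 matched cytokine genes (30.8%) and in 8 of the 44 matched largest rises (18.2%). Among the 42 matched largest falls it was in 4 (9.52%). The region lies at chr5:30012864-30013113 on the plus strand (GRCm38.p6), with the match in capitals.
Il6: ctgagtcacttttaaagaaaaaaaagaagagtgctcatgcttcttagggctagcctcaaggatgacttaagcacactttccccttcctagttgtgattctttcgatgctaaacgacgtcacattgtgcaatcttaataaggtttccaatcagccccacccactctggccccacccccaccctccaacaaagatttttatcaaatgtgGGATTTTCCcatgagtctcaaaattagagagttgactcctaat

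Cytokine receptor genes rose in 12 and fell in 12 of 29. After quantile normalization 14 rose and 10 fell, and after the shift to one median 13 and 8. Il2ra, the high-affinity subunit of the IL-2 receptor, had 1734, 1582 and 1523 in exposed and 45.2, 38.4 and 37.1 in untreated cells (4.86 ± 0.15). Il15ra, which presents IL-15 on the cell surface, changed by 2.76, Il21r by 2.57 and the TNF receptor gene Tnfrsf1b by 2.10. Flt3, the receptor of the growth factor these cells were raised in, had 1154, 1358 and 1308 in exposed and 5361, 4763 and 5632 in untreated cells. All exposed values were lower (-2.03 ± 0.10, adjusted p = 3.72e-08). Csf1r, the macrophage growth factor receptor, changed by -3.98, Lifr by -2.54 and Csf3r by -2.07. Csf1r is also a member of the macrophage and cDC2 marker lists.

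Genes of T cell costimulation and its inhibition rose in 22 and fell in 9 of 40 (median 0.85). Cd40, the receptor through which helper T cells license dendritic cells, had 4738, 4694 and 5014 in exposed and 119, 139 and 112 in untreated cells (5.12 ± 0.09, adjusted p = 3.49e-10). The genes of 2 inhibitory ligands rose too. Cd274, which encodes PD-L1, had 6673, 6285 and 6091 in exposed and 280, 285 and 249 in untreated cells (4.47 ± 0.09), and Pdcd1lg2, which encodes PD-L2, changed by 4.80 ± 0.21. Cd80 (2.84 ± 0.13) and Cd86 (1.77 ± 0.10), the ligands of CD28, rose too. Cd80 had 1967, 2542 and 2405 in exposed and 293, 311 and 313 in untreated cells, and Cd86 had 6380, 7781 and 6888 in exposed and 2030, 1856 and 2239 in untreated cells, with no overlap in either. Tnfsf15, a TNF family ligand of T cells, changed by 4.13. Cd48 (-2.78), Slamf8 (-1.66) and the inhibitory receptor gene Btla (-0.85) fell.

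NF-kB, the inflammatory transcription factor family, and its regulators rose in 25 and fell in 5 of 34 (median 1.09). Tnip3, a partner of the inhibitor A20, had 7646, 7895 and 8229 in exposed and 371, 365 and 366 in untreated cells (4.37 ± 0.09). Map3k14, the kinase NIK of the non-canonical pathway, changed by 3.37, the adaptor gene Traf1 by 3.34 and Birc3, a ubiquitin ligase, by 2.50. The feedback inhibitors Tnfaip3 (A20) and Nfkbia changed by 1.38 ± 0.11 and 1.04 ± 0.12. The genes that fell included Tab1 (-1.92), Cyld, a deubiquitinase (-1.28), and Ikbkb, a kinase of the inhibitor (-1.16).

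Early transcription factors rose in 19 and fell in 12 of 40 (median 0.22). Nr4a3, an orphan nuclear receptor, had 8573, 8326 and 8254 in exposed and 209, 218 and 206 in untreated cells (5.21 ± 0.17, adjusted p = 4.7e-09). Mxd1, which opposes Myc by binding its partner MAX, had 11589, 10947 and 10475 in exposed and 423, 662 and 458 in untreated cells (4.40 ± 0.14). Myc had 411, 405 and 441 in exposed and 1338, 1621 and 1435 in untreated cells (-1.76 ± 0.14), and Mycl, the family member used by dendritic cells, changed by -2.57. Mxd1 was thus higher and Myc lower on every exposed array. Batf, a partner of IRF factors (2.77), and Bhlhe40, a repressor of Il10 in other immune cells (3.05), rose, while Klf4 (-2.31) and Fos (-2.09) fell. The feedback genes of MAP kinases rose in 9 and fell in 12 of 27, a balance that turned to 13 and 8 after quantile normalization. Dusp4 (3.06) and Dusp2 (2.19), nuclear phosphatases, rose. Dusp6, the cytoplasmic ERK phosphatase, had 117, 94.5 and 103 in exposed and 1618, 1705 and 1528 in untreated cells (-3.76 ± 0.14). Dusp7 (-3.50), Spred2 (-2.41) and the ERK target Etv5 (-2.36) also fell.

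**Figure D3:**
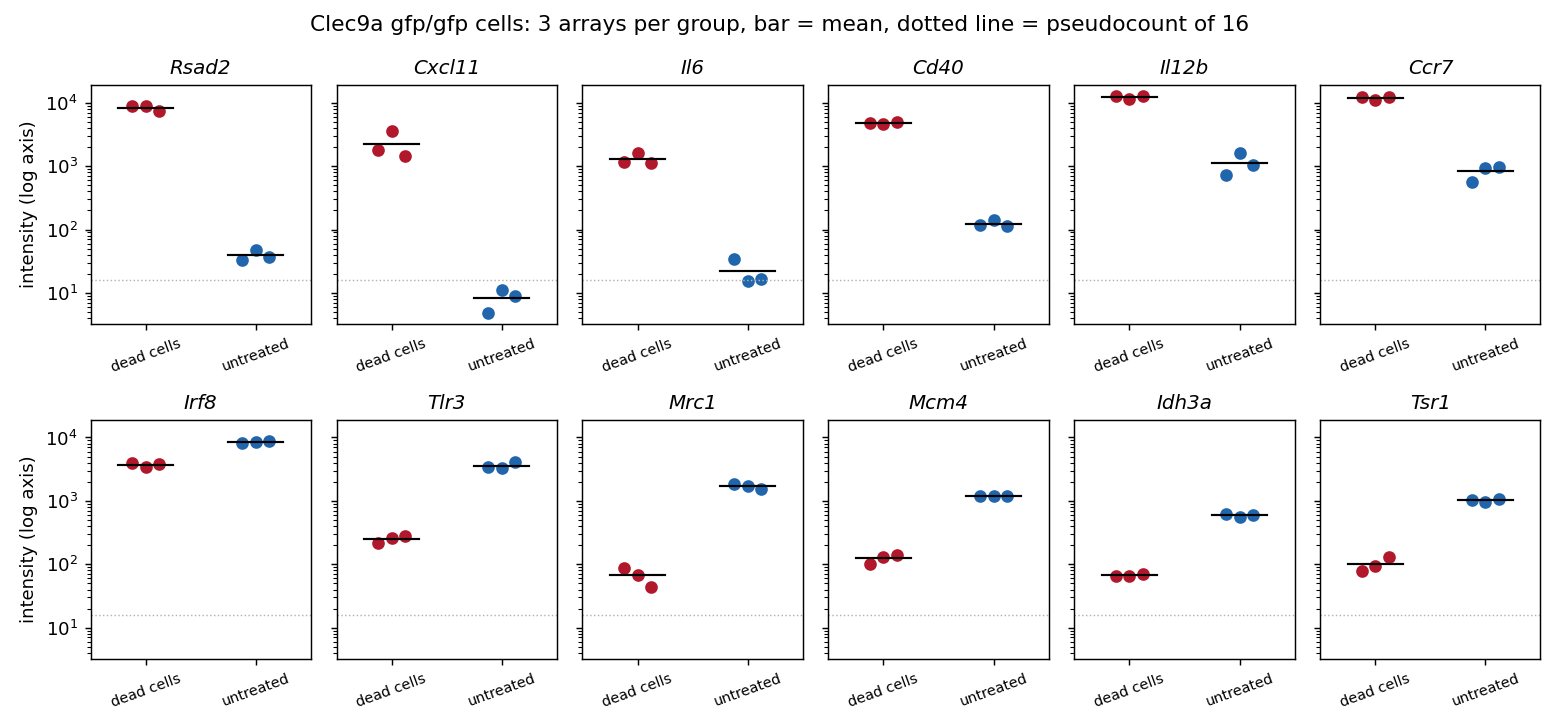
Intensity (log axis) of 12 named genes on each array of Clec9a gfp/gfp cells, exposed cells on the left of each panel and untreated cells on the right, with 3 points per group, a bar at their mean and a dotted line at the pseudocount of 16. The groups are apart in all 12 panels: Rsad2, Cxcl11, Il6, Cd40, Il12b and Ccr7 are higher in exposed cells, and Irf8, Tlr3, Mrc1, Mcm4, Idh3a and Tsr1 are lower.

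Maturation genes of dendritic cells rose in 26 and fell in 4 of 35, with a median of 1.98. Many of them are members of the lists above. Further rises were Il4i1, an amino acid oxidase of mature dendritic cells, with 2521, 2020 and 2698 in exposed and 120, 175 and 159 in untreated cells (3.86 ± 0.21), and Gadd45b, a stress-response gene (3.72). Fscn1, the actin-bundling protein of mature dendritic cell processes, changed by 0.89 ± 0.15 (adjusted p = 0.000372). Tmem176b, a channel gene of immature dendritic cells (-1.32), and Aldh1a2, which makes retinoic acid (-1.17), fell.

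Stress genes differed by pathway. Of 21 heat shock genes 8 rose and 9 fell, and after quantile normalization 10 rose and 5 fell. Hspa1a, the inducible HSP70 chaperone, had 1886, 2142 and 2471 in exposed and 40, 36 and 29.8 in untreated cells. All exposed values were higher (5.41 ± 0.14, adjusted p = 2.05e-09). It has a near-identical neighbour copy, from which a probe set may not tell it apart. Hsf2 (2.19), a heat shock factor, and the co-chaperones Hsph1 (1.84) and Dnajb1 (1.56) rose. Fkbp4 (-2.46), the mitochondrial Hspa9 (-1.74) and Hspa4 (-1.57) fell. The Hspa1a promoter is shown because it holds the heat shock element, written GAANNTTC, which is its own reverse complement. The element was in 9.04% of the 27025 genes, in 7.58% of the 11855 with a row on the array and in 8 of 17 matched heat shock genes (47.1%). Among the 44 matched largest rises it was in 3 (6.82%), fewer than the 7 of 42 matched largest falls (16.7%). The region lies at chr17:34972157-34972406 on the minus strand (GRCm38.p6), with the match in capitals.
Hspa1a: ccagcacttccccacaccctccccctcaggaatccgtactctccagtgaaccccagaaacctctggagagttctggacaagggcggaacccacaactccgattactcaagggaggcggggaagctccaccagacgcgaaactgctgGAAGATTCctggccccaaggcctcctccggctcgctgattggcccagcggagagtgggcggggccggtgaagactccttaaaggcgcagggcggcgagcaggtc

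NRF2, the factor of the oxidative stress response, had targets that mostly rose, 14 of 27 against 5 that fell (median 0.76). Gclc, which makes glutathione's precursor, had 3488, 2876 and 4237 in exposed and 381, 400 and 417 in untreated cells (3.08 ± 0.14). Srxn1 (2.94) and Prdx1 (2.84), which recycle and use peroxiredoxin, and Slc7a11 (2.69), the cystine importer, also rose. Blvra, which encodes a biliverdin reductase (-2.80), fell. Of 35 genes of the unfolded protein and integrated stress responses 14 rose and 13 fell on the deposited scale. After quantile normalization 18 rose and 10 fell, and after the shift to one median 18 and 8. Ddit4, an inhibitor of mTORC1 (2.81), Asns, the asparagine synthetase (1.95), and the stress factor gene Ddit3 (1.28) rose. Psat1, of serine synthesis (-1.81), and Sdf2l1, of the endoplasmic reticulum (-1.68), fell.

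Glycolysis and hypoxia genes mostly rose, while nearly every gene of the TCA cycle and respiratory chain fell. Of 33 measured hypoxia and glycolysis genes 20 rose and 6 fell (median 1.14). Pfkfb3, which makes the activator of glycolysis, had 8868, 8114 and 8553 in exposed and 1122, 1353 and 1334 in untreated cells (2.73 ± 0.11). Slc16a3, the lactate exporter, had 3190, 3051 and 3258 in exposed and 263, 308 and 237 in untreated cells (3.49 ± 0.14). Slc2a1, the glucose transporter GLUT1, changed by 2.08, the enolase gene Eno2 by 2.79 and Egln3, an oxygen sensor of the HIF pathway, by 2.55. Hif1a itself changed by 0.37 ± 0.10 (adjusted p = 0.00825), while Pfkm (-1.55) and Car9 (-1.49) fell. Of 42 genes of the TCA cycle and respiratory chain 0 rose, also at an unadjusted p under 0.05 in limma, and 41 fell (median -1.09). Idh3a, a TCA cycle dehydrogenase, had 65.3, 66.1 and 71.2 in exposed and 626, 553 and 608 in untreated cells (-2.87 ± 0.09, adjusted p = 4.7e-09). Fh1, the fumarase (-2.59), Aco1 (-2.37) and Idh1 (-2.24) followed, and Cox7b was the one member that passed no test (0.34, adjusted p = 0.274). After quantile normalization 31 of the 42 fell and 0 rose.

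Nutrient transporters rose in 11 and fell in 17 of 33, a balance of 15 to 14 after quantile normalization. Besides those named, Slc2a6 rose (2.33). The iron exporter gene Slc40a1 (-3.23), the amino acid transporter gene Slc43a2 (-3.20), Slc16a7 (-2.94) and the nucleoside transporter gene Slc29a1 (-2.74) fell. Genes of inflammasomes and cell death rose in 16 and fell in 14 of 34. Casp4, the sensor caspase of lipopolysaccharide, had 2228, 2526 and 2389 in exposed and 168, 98.7 and 136 in untreated cells (4.02 ± 0.16). Cflar, which blocks caspase-8 (3.59), and the survival gene Bcl2l1 (2.54) rose together with Bcl2l11, which encodes the killer BIM (2.85). Casp6 (-3.53), Bid (-2.44) and Bcl2 (-1.76) fell. Targets of p53 rose in 9 and fell in 14 of 28, and after quantile normalization in 12 and 11. Cdkn1a, the p21 inhibitor of the cell cycle (2.65), Ccng2 (2.26) and Mdm2, the ligase of p53 (1.65), rose, while Sesn1 (-2.69) and Trp53inp1 (-2.20) fell.

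Identity genes of cDC1 mostly fell, 22 of 32 against 5 that rose (median -0.78). After quantile normalization 7 rose and 19 fell, and after the shift to one median 8 and 18. Itgae, which encodes the integrin CD103, had 949, 1007 and 755 in exposed and 4103, 3463 and 3069 in untreated cells (-1.95 ± 0.14). Rab7b, a vesicle GTPase, changed by -2.18. The rises included Ly75, the uptake receptor DEC-205, with 4518, 4708 and 4776 in exposed and 614, 643 and 641 in untreated cells (2.85 ± 0.09), Cd8a, which marks these cells in lymphoid organs (2.24), and Nfil3, a factor of cDC1 development (1.61). Zbtb46, a factor of all conventional dendritic cells, changed by -0.15 (adjusted p = 0.221) on the deposited scale and by 0.30 (adjusted p = 0.0106) after quantile normalization.

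Toll-like receptor genes fell more often than they rose. Of 27 receptors and adaptors 4 rose, 17 fell and 6 passed no test (median -1.26). After quantile normalization 6 rose and 15 fell, and the counts were the same after the shift to one median. Tlr3, the endosomal receptor of double-stranded RNA and a hallmark of cDC1, had 213, 260 and 277 in exposed and 3476, 3289 and 4052 in untreated cells. The exposed values were all lower (-3.77 ± 0.14, adjusted p = 8.76e-09). Tlr11 (-3.42) and Tlr12 (-3.51), the receptors of a parasite's profilin, and Tlr4 (-3.21), the receptor of lipopolysaccharide, also fell. Tlr9, the DNA receptor, had 2885, 2739 and 2849 in exposed and 885, 1007 and 912 in untreated cells and was the receptor that rose most (1.58 ± 0.11). Ly96, the partner MD-2 of TLR4 (1.42), the kinase gene Irak2 (1.28) and the adaptor gene Myd88 (0.44) rose as well.

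Uptake receptors mostly fell. Of 38 C-type lectin and Fc receptor genes 6 rose and 23 fell (median -0.83). After quantile normalization 6 rose and 18 fell, and after the shift to one median 10 and 20. Mrc1, the mannose receptor, had 86.8, 68.8 and 44.4 in exposed and 1832, 1730 and 1526 in untreated cells (-4.40 ± 0.24, adjusted p = 5.39e-08). Cd209a (-3.46), the low-affinity Fc receptor gene Fcgr3 (-3.46) and Clec4n, which encodes Dectin-2 (-3.15), followed. Clec4e, which encodes Mincle (1.77), Clec2i (2.53) and Malt1, a signalling protease downstream of such lectins (2.56), rose. Of 43 receptors and bridging molecules for dead cells 26 fell and 6 rose (median -0.52). After quantile normalization 13 rose and 23 fell, and after the shift to one median 11 and 19. Stab1, a scavenger receptor, had 26.5, 22.4 and 19.9 in exposed and 1077, 1117 and 901 in untreated cells (-4.75 ± 0.18). Cd93 (-4.10), the complement gene C1qa (-4.05) and Gas6, the bridge to TAM receptors (-3.95), also fell. The phosphatidylserine receptor genes Havcr1 (3.30) and Timd4 (2.59) and the TAM receptor gene Axl (2.51) rose, and Axl had 2886, 3044 and 3187 in exposed and 483, 548 and 527 in untreated cells with no overlap. Mrc1, Stab1 and C1qa stand in the macrophage marker list, whose summed level moved the same way.

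**Figure D4:**
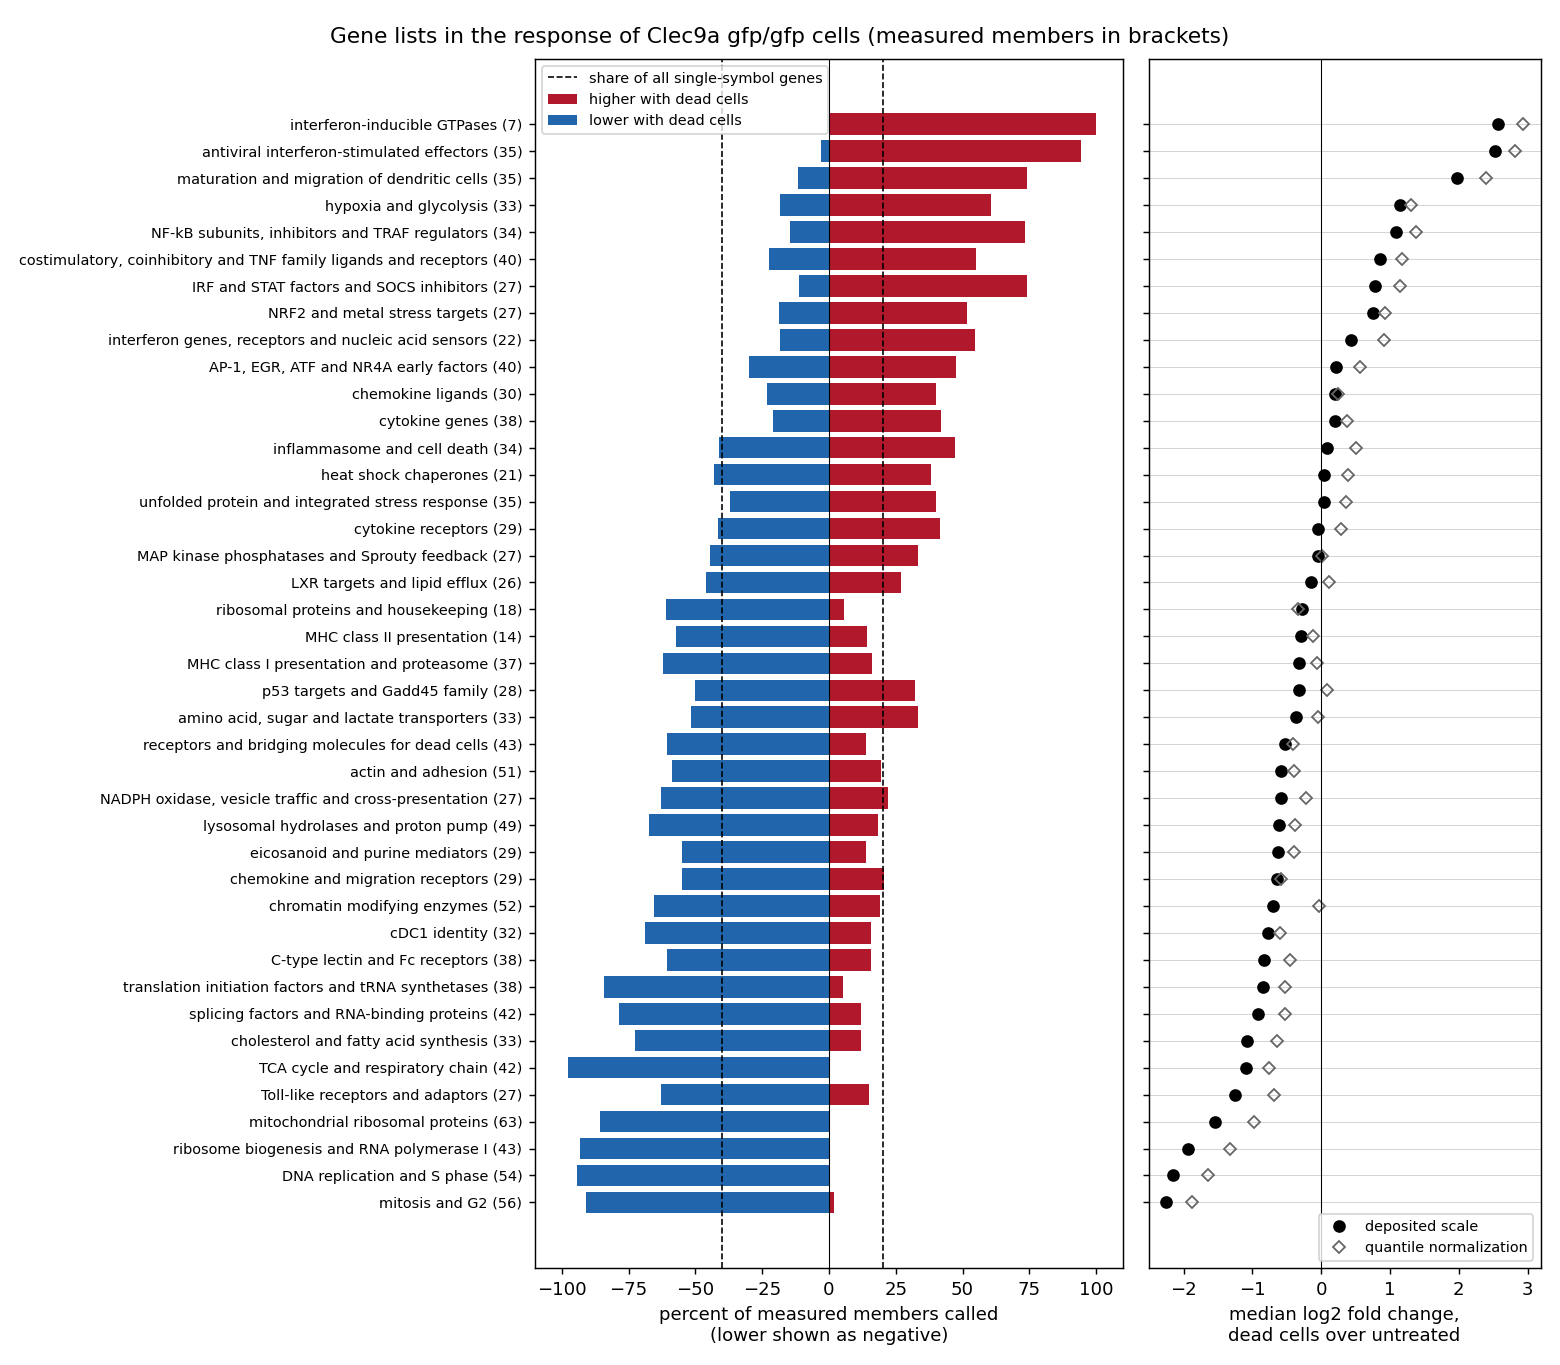
Left, percent of the measured members of 41 gene lists called higher (red) or lower (blue, drawn as negative) in exposed Clec9a gfp/gfp cells, with dashed lines at the 20.2% and 40.1% of all genes. Right, the median log2 fold change of each list on the deposited scale (filled) and after quantile normalization (open), which lies to the right for most lists while the GTPase and antiviral lists stay at the top and the cell cycle lists at the bottom.

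Antigen presentation genes fell more often than they rose on the deposited scale, a balance that depended on the scaling, and several of the best known members passed no test. Of 37 genes of MHC class I presentation and the proteasome 6 rose and 23 fell (median -0.32). After quantile normalization 7 rose and 14 fell, and after the shift to one median 10 and 13. Tap2, of the peptide transporter, had 2822, 2554 and 2797 in exposed and 1852, 1694 and 1736 in untreated cells (0.62 ± 0.08), and the loading factors Tapbp (0.53) and Tapbpl (0.50) rose. The proteasome activator gene Psme3 (-1.77), the assembly factor gene Pomp (-1.14) and the trimming peptidase gene Erap1 (-1.11) fell. The immunoproteasome genes Psmb8 and Psmb9 passed no test, at 0.10 (adjusted p = 0.331) and 0.10 (adjusted p = 0.382). Of 14 MHC class II genes 2 rose and 8 fell, and the counts were 5 and 6 after quantile normalization and 5 and 5 after the shift. H2-Ab1 had 15590, 15033 and 16344 in exposed and 14974, 13227 and 15927 in untreated cells (0.09 ± 0.09, adjusted p = 0.421), with the groups overlapping. H2-Aa (0.17) and Cd74 (0.12) passed no test either, and after the shift to one median all 5 of these genes passed, at 0.33 for H2-Ab1, 0.41 for H2-Aa, 0.35 for Cd74, 0.34 for Psmb8 and 0.33 for Psmb9. Marchf1, the ligase that removes MHC class II from the surface of immature cells, had 274, 287 and 221 in exposed and 1856, 1752 and 1643 in untreated cells (-2.68 ± 0.11). Lgmn, an antigen-cutting protease, rose (1.48).

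Vesicle and lysosome genes fell more often than they rose, as did all genes, of which 20.2% rose and 40.1% fell. Of 27 genes of the NADPH oxidase, vesicle traffic and cross-presentation 6 rose and 17 fell, and after quantile normalization 7 rose and 14 fell. The oxidase gene Ncf1 (0.87) rose, and Rab32 (-1.99) and the autophagy gene Atg5 (-1.92) fell. Of 49 lysosomal hydrolases and proton pump subunits 9 rose and 33 fell (median -0.61), and after quantile normalization 11 rose and 30 fell. Gusb, a glucuronidase, had 456, 423 and 449 in exposed and 4516, 3580 and 4210 in untreated cells (-3.16 ± 0.09). The sphingomyelinase gene Smpd1 (-2.76) and the protease gene Ctsd (-2.75) also fell. Acp5, an acid phosphatase, had 621, 313 and 545 in exposed and 43.1, 37.4 and 54 in untreated cells (3.02 ± 0.24), and Gla (1.89) and the pump subunit gene Atp6v1d (1.32) rose.

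On the deposited scale, genes of lipid synthesis and of eicosanoid and purine mediators fell in most members, while LXR targets did not. Of 33 genes of cholesterol and fatty acid synthesis 24 fell and 4 rose (median -1.08), and after quantile normalization 19 fell and 7 rose. The desaturase gene Scd2 had 259, 240 and 266 in exposed and 2366, 3016 and 1999 in untreated cells (-3.17 ± 0.14), followed by Elovl6 (-3.01), Fads1 (-2.84) and Dhcr7, of the last step of cholesterol synthesis (-2.49). Pmvk (1.06) and Hmgcs1 (1.04), of the mevalonate pathway, rose. LXR targets rose in 7 and fell in 12 of 26, and in 11 and 11 after quantile normalization. Apoe, a lipid carrier (-3.49), Lpl (-2.93) and the cholesterol exporter gene Abca1 (-2.76) fell. Ch25h, an interferon-induced hydroxylase of cholesterol, had 186, 215 and 142 in exposed and 28.7, 49.1 and 30.8 in untreated cells (1.92 ± 0.24). Eicosanoid and purine mediators rose in 4 and fell in 16 of 29, and in 7 and 14 after quantile normalization. Cysltr1 (-3.22), the ATP receptor gene P2rx7 (-2.75) and the thromboxane synthase gene Tbxas1 (-2.41) fell, while Ptger4, a receptor of prostaglandin E (1.46), rose.

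Cell cycle genes fell almost throughout. Of 54 genes of DNA replication and S phase 0 rose, also at an unadjusted p under 0.05 in limma, and 51 fell, with a median of -2.15. Mcm4, of the replicative helicase, had 101, 131 and 139 in exposed and 1187, 1190 and 1176 in untreated cells (-3.12 ± 0.12, adjusted p = 9.2e-09). Dna2, a nuclease (-3.29), Tipin, of the replication fork (-3.16), and Rrm1, of ribonucleotide reductase (-3.04), followed. Of 56 genes of mitosis and G2 51 fell and 1 rose (median -2.25). Ccna2, the cyclin A gene, had 97, 116 and 105 in exposed and 1363, 1437 and 1472 in untreated cells (-3.56 ± 0.12). Kif20a (-3.29), the kinase gene Plk1 (-3.15) and the spindle midzone gene Prc1 (-3.05) also fell. Pttg1, which encodes securin, was the one that rose, with 1863, 2320 and 1756 in exposed and 314, 362 and 363 in untreated cells (2.45 ± 0.12). After quantile normalization 48 S phase and 48 mitosis genes fell.

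Promoters of 3 cell cycle genes are shown for 2 motifs known from them. The E2F motif was searched as TTGGCGC and TTCCCGC on both strands. It was in 7.79% of the 27025 genes, in 11.5% of the 11855 with a row on the array and in 26 of 45 matched S phase genes (57.8%). Among the 42 matched largest falls it was in 3 (7.14%), and among the 44 matched largest rises in 3 (6.82%). The cell cycle homology region, TTTGAA on both strands, was in 20.2% of the 27025 genes, in 16.9% of the 11855 and in 31 of 48 matched mitosis genes (64.6%). It was in 7 of the 42 matched largest falls (16.7%) and in 9 of the 44 matched largest rises (20.5%). Rrm1 (chr7:102441445-102441694, plus strand) and Mcm6 (chr1:128359706-128359955, minus strand) have their E2F matches in capitals. Mcm6, another helicase subunit (-2.99), was chosen after its values were seen. Prc1 (chr7:80294226-80294475, plus strand, first of 2 listed starts) has its homology region in capitals. The build is GRCm38.p6.
Rrm1: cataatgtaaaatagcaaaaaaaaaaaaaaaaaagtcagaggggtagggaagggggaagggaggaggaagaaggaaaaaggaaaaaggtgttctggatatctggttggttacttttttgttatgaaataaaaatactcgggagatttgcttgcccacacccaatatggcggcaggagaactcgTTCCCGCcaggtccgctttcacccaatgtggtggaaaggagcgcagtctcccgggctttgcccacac
Mcm6: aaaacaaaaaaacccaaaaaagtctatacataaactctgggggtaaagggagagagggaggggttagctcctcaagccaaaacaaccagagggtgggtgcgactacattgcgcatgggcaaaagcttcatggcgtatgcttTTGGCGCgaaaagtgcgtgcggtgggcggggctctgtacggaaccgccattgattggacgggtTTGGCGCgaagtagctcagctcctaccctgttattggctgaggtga
Prc1: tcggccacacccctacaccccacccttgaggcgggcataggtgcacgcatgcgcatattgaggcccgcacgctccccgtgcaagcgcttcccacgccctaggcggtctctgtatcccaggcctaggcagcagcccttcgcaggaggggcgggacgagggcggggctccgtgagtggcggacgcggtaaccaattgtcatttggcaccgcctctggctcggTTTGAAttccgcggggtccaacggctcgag

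Genes of ribosome production and gene expression also fell in most cases. Of 43 genes of ribosome biogenesis and RNA polymerase I 0 rose, also at an unadjusted p under 0.05 in limma, and 40 fell (median -1.93). Tsr1, of small subunit assembly, had 79.2, 95 and 131 in exposed and 1023, 944 and 1075 in untreated cells (-3.15 ± 0.18, adjusted p = 9.04e-08). Wdr12 (-3.09), the polymerase subunit gene Polr1e (-2.95) and Imp4 (-2.54) also fell. Of 63 mitochondrial ribosomal proteins 0 rose (1 at an unadjusted p under 0.05 in limma) and 54 fell (median -1.54), led by Mrps2 (-2.56) and Mrpl36 (-2.49). After quantile normalization 39 of the 43 and 49 of the 63 fell, and 2 and 7 rose. Translation factors and tRNA synthetases fell in 32 and rose in 2 of 38, with Farsb (-2.65) and Eif4ebp2, an inhibitor of cap-dependent translation (-2.62), among the falls and Eif5b (0.60) among the rises. Splicing factors and RNA-binding proteins fell in 33 and rose in 5 of 42. Prpf19 (-2.78) and Srsf1 (-2.01) fell, while the mRNA decay factors Zfp36 (0.63) and Zfp36l1 (0.82) and the kinase gene Clk1 (0.61) rose.

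Chromatin enzymes fell in 34 and rose in 10 of 52, and after quantile normalization in 23 and 19. Prmt5 (-2.94) and the maintenance DNA methylase gene Dnmt1 (-2.30) fell, and Dot1l (1.70), Kdm3a (1.53) and Tet2 (1.40), which modify histones or DNA, rose. Actin and adhesion genes fell in 30 and rose in 10 of 51. Rnd1, which loosens actin fibres (2.79), Icam1, the adhesion ligand of T cells (2.21), and Itga5 (1.79) rose, and Itga6 (-3.68) and Itgam (-2.60) fell. Actb, the beta-actin gene, had 21421, 19867 and 20840 in exposed and 19904, 20485 and 18784 in untreated cells. Its groups overlapped (0.07 ± 0.08, adjusted p = 0.521), while after the shift to one median it was 0.31 (adjusted p = 0.0132). Of 18 ribosomal protein and housekeeping genes 11 fell and 1 rose (median -0.28), and after the shift to one median 7 fell and 3 rose.

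Genes switched on or off were counted by level: below 32 on every array of one group and above 8 times that on every array of the other. By this rule 4 genes were on and 15 off in exposed cells, and all 19 also passed the test. The genes switched on were Cxcl11, Procr, Slfn1 and Slfn4. Procr, the receptor of protein C, had 1115, 1315 and 1083 in exposed and 30.2, 28.6 and 29.9 in untreated cells (4.70 ± 0.13). Slfn1, an interferon-induced regulator of lymphocyte growth, had 569, 626 and 509 in exposed and 20, 17.2 and 17.8 in untreated cells (4.08 ± 0.18). Both lay below 32 on all untreated arrays. Slfn4, of the same family, had 267, 437 and 302 in exposed and 16.3, 0.533 and 20.7 in untreated cells (3.67 ± 0.28).

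The genes switched off were of several kinds. Cpa3, a mast cell and basophil protease, had 12.1, 9.49 and 6.4 in exposed and 779, 870 and 487 in untreated cells (-4.81 ± 0.40), the largest named fall of the response. F13a1, a clotting factor subunit of macrophages, had 26.9, 22.7 and 21.4 in exposed and 1088, 962 and 937 in untreated cells (-4.67 ± 0.14). Cpa3, F13a1 and Stab1 are marker genes of other cells in the lists above. Outside those lists, Hpgd, which inactivates prostaglandins, had 13.7, 12.3 and 20.3 in exposed and 402, 391 and 527 in untreated cells (-3.86 ± 0.27). Cmtr2, a methylase of the mRNA cap, had 0.0112, 13.5 and 2 in exposed and 270, 298 and 274 in untreated cells (-3.86 ± 0.28). Every exposed value was below every untreated one in both. Esco2 (-3.06), a cohesin acetylase, Cdca7 (-3.48), a cell cycle gene, and Map2k6 (-3.10), a kinase of the p38 pathway, were off as well. The others were Tlr4, Nxpe5 (-4.21), Abhd15 (-3.63), Cd300lb (-3.48), Slc14a1 (-3.24), Ado (-2.93) and Cep68 (-2.79).

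Some other genes among the 25 largest changes in each direction are named here, of which Ngp alone stands in a list. Among the rises were AA467197 (4.96), Mab21l3 (4.89), Abtb2 (4.68), Gca, a calcium-binding protein of leukocytes (4.53), and Pdzk1ip1 (4.53). AA467197 had 1280, 1787 and 1029 in exposed and 35.3, 25 and 22.4 in untreated cells, with the groups far apart. Among the falls were Fcrls, a microglia and macrophage gene (-4.63), Ngp, a neutrophil granule protein of the neutrophil marker list (-4.13), Mlec, a lectin of the endoplasmic reticulum (-3.93), and the nucleolar gene Nifk (-3.72). Mlec had 195, 200 and 236 in exposed and 3260, 3556 and 3440 in untreated cells, again without overlap.

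The same treatment in WT cells moved nearly the same genes. Of the 8925 genes called in Clec9a gfp/gfp cells, 8865 (99.3%) had the same sign in WT cells. Of the 4389 called at 2-fold or more, 4358 were also called with that sign in WT cells. Over all 14807 genes, 16.4% rose and 39.2% fell in WT cells. The upper quartile of the WT arrays differed by treatment too, at 240 to 258 with dead cells and 396 to 419 untreated, so both responses carry such a difference in scale. The 95% interval of the difference between the 2 responses lay within 1 log2 unit for 4049 of the 4389 (92.3%). That share was near the one over all genes, 13431 of 14807 (90.7%). The median size of the difference was 0.12 for the 4389 genes. Rsad2 changed by 7.24 in cells without DNGR-1 and by 7.08 in WT cells, Il6 by 5.13 and 5.23, Cd40 by 5.12 and 5.50, Ccr7 by 3.85 and 4.45, Tlr3 by -3.77 and -3.89, and Mcm4 by -3.12 and -3.22. The adjusted p of the difference was 0.999 for Rsad2, 0.999 for Il6, 0.999 for Cd40, 0.999 for Ccr7, 0.999 for Tlr3 and 0.999 for Mcm4. None of the 6 passed the test, with 95% intervals of -0.28 to 0.60 for Rsad2, -0.73 to 0.53 for Il6, -0.68 to -0.08 for Cd40, -1.17 to -0.03 for Ccr7, -0.32 to 0.56 for Tlr3 and -0.27 to 0.47 for Mcm4.

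Only 1 of 23238 rows (0.0043%) was called in the difference between the responses, and 997 (4.29%) had an unadjusted p under 0.05. That row was Clec7a, the gene of the beta-glucan receptor Dectin-1, which neighbours Clec9a in the same lectin gene cluster. Clec7a had 1099, 1045 and 1104 in exposed and 3338, 2314 and 3409 in untreated Clec9a gfp/gfp cells, and 525, 449 and 463 with dead cells and 266, 311 and 327 untreated in WT cells. It changed by -1.45 ± 0.15 in cells without DNGR-1 and by 0.64 ± 0.15 in WT cells on the log2 scale, a difference of -2.09 ± 0.21 (adjusted p = 0.0219, 95% interval -2.55 to -1.63). Leaving out 1 array at a time moved the difference between -2.27 and -1.99 and took its adjusted p past 0.05 for 10 of the 12 arrays. Both Clec9a gfp/gfp groups lay above both WT groups. The next smallest p-values belonged to genes with a higher untreated level in Clec9a gfp/gfp cells and no adjusted call. Untreated, Cd274 had 280, 285 and 249 in Clec9a gfp/gfp cells and 138, 131 and 155 in WT ones, with a difference in response of -0.82 (adjusted p = 0.375). Bhlhe40 differed by -0.89 (adjusted p = 0.527) and Csf2rb, a shared receptor subunit of IL-3, IL-5 and GM-CSF, by -0.60 (adjusted p = 0.562). Clec9a differed by 0.80 (adjusted p = 0.999), with a change of -0.85 in WT cells and values below 16 throughout in Clec9a gfp/gfp cells.

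**Figure D5:**
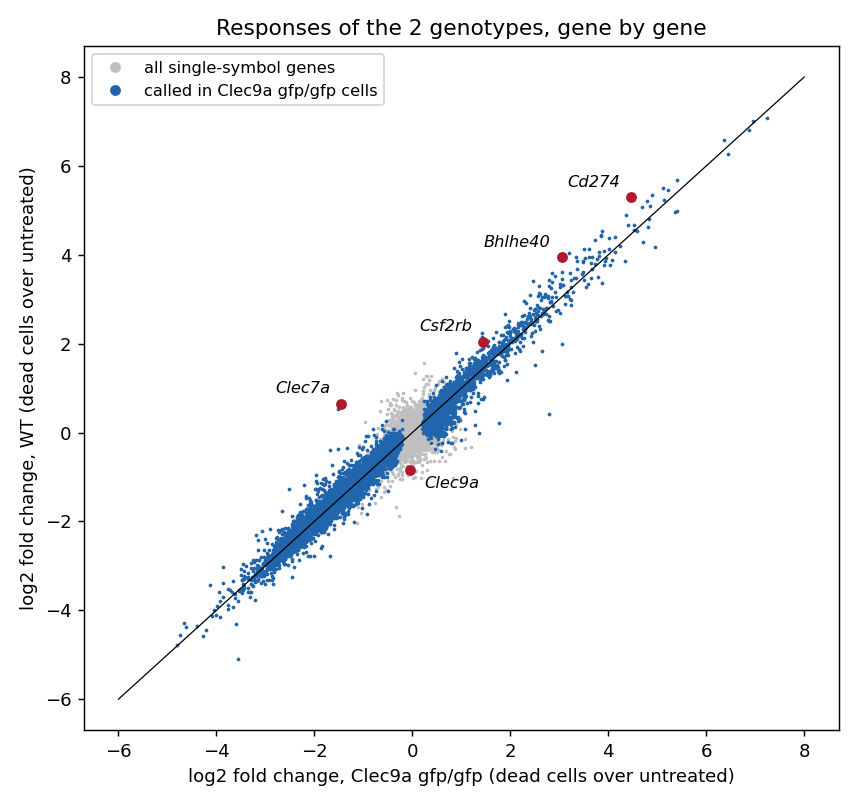
Log2 fold change with dead cells in cells of Clec9a gfp/gfp (x axis) and WT mice (y axis), 1 point per gene, with genes called in Clec9a gfp/gfp cells in blue, 5 labelled genes in red and the line of equal response in black. Points lie along the line, while Clec7a lies off it, at -1.45 on the x axis and 0.64 on the y axis.

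Olfr1230, an olfactory receptor gene, had the largest difference in response among genes called in either genotype. It had 139, 124 and 139 in exposed and 9.73, 1.97 and 6.5 in untreated Clec9a gfp/gfp cells, against 130, 125 and 134 with dead cells and 155, 9.35 and 278 untreated in WT cells. The untreated WT arrays spanned nearly the whole range, and the difference of 2.36 ± 0.95 passed no test (adjusted p = 0.999). Among the 41 function lists, a gene called in the difference between the responses was held by that of C-type lectin and Fc receptors alone, through Clec7a, beside 1 called row of 23238.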

How the data were processed

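The series holds 12 Affymetrix whole-transcript arrays, each of 1 sample, in 4 groups of 3 that the labels give. Column-purified, DNase-treated RNA was depleted of ribosomal RNA and biotin-labelled, per the labels' protocols. The values the authors deposited are intensities, linear as judged from their range, in 23238 rows. The submitters' processing notes name mm8 as the build; for software, background correction and normalization, nothing is given in the sources used here. Precision is limited by the number of arrays, which have no depth.

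Rows were named from the platform's annotation table, updated by gene ID to RefSeq. Exactly 1 gene symbol stood beside 14939 rows (14884 matched to RefSeq) and several beside 989, while the gene table did not list 7310. They covered 14807 genes, and for 131 genes with more than 1 row the row with the highest mean was used. Promoters came from the RefSeq table of GRCm38.p6, whose coordinates belong to that build alone.

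Intensities were converted to log2(value + 16), and all 12 arrays were fitted together, 1 mean for each group, with limma 3.58.1 (R 4.3.3, lmFit and eBayes, two-sided). A call needs an adjusted p under 0.05 (Benjamini-Hochberg over all 23238 rows). With 3 arrays a group an exact permutation test cannot go below 0.1, hence limma's values. The fit was also run on simulated arrays with 200 changed rows and independent normal noise. Such arrays meet the model's assumptions and lack a difference in scale, so that run cannot show how the test does on these data. The gene lists and the members described were chosen with earlier results of these data known, from textbook knowledge. They are described by counts and medians, with no test of a list.

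Genes were named from a pool set by rule, and not every gene of the pool is described. The pool held Clec9a and the 25 largest rises and 25 largest falls whose groups were apart. From each list came up to 4 rises, up to 4 falls and up to 3 members that passed no test or went against it. The genes switched on or off and those leading the difference in response were added. The last part was 34 genes of textbook interest for cDC1, of which those not measured by a single-symbol row are not analysed here. Alternatives were other pseudocounts, quantile normalization, a shift to one median, 1 row per gene, a fit without the dimmest 25% of rows, trended or robust eBayes, array weights, a block for the replicate number, the 6 arrays of one genotype alone, a 1.5-fold requirement and leaving out each array. Same-numbered exposed and untreated arrays deviated together little or not at all (r of -0.0704 to 0.133 in Clec9a gfp/gfp and -0.0179 to 0.0444 in WT cells). Such values cannot show whether the numbers pair the samples, which is not known. The main fit has no block for the number, and the fit with one is among the alternatives. No scan dates were used, and no batch could be tested.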

Additional observations from a re-analysis of the deposited data

Results flagged for a closer look

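The response of Clec7a to dead cells differed between the genotypes by a test of the difference itself. It fell in Clec9a gfp/gfp cells (-1.45 ± 0.15, SE) and rose in WT cells (0.64 ± 0.15), a difference of -2.09 ± 0.21 on the log2 scale (limma, adjusted p = 0.0219). All 3 exposed arrays of Clec9a gfp/gfp cells lay below all 3 untreated ones, and all 3 WT arrays with dead cells lay above the 3 untreated ones. It was the only row called among 23238, and it lost the call when any of 10 of the 12 arrays was left out.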

How the results depend on the processing

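The Clec9a gfp/gfp response kept its count of lower rows within 1.5 times under every alternative but the 1.5-fold requirement, which left 826 higher and 4703 lower rows of 3856 and 7457. Scaling moved the higher rows to 6622 (quantile normalization) and 7454 (shift to one median), against 3856 on the deposited scale, and those of WT cells to 6276 and 6969, against 3368. Leaving out 1 array at a time gave 3221 to 4008 higher and 6988 to 7540 lower rows for Clec9a gfp/gfp, 2734 to 3504 and 6719 to 7300 in WT cells, and 0 to 1 higher and 0 to 2 lower in the difference. With the replicate number as a block, 3651 higher and 7363 lower rows were called in the Clec9a gfp/gfp response, and the difference called 0 rows (Clec7a adjusted p = 0.0933). The other counts of the difference that moved were 2 lower rows with trended eBayes and 2 when also robust, 0 with a pseudocount of 1 (Clec7a adjusted p = 0.0639), and 1 higher row without a pseudocount and 1 with a pseudocount of 64.

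Of the 281 genes named, 259 kept direction and call in the Clec9a gfp/gfp response under every alternative checked gene by gene. The 1.5-fold requirement, the fit with 1 row per gene and the fits without a WT array were not checked in this way. Without a pseudocount Cxcr5 (adjusted p = 0.108), Elovl6 (adjusted p = 0.146) and Fcer1a (adjusted p = 0.0844) passed no test. Signs turned for genes near 0, where the cause was not tested. After quantile normalization these were Epsti1 (0.16), Il10 (0.05) and Zbtb46 (0.30), and after the shift to one median Clec9a (0.18), Il10 (0.14) and Zbtb46 (0.08). Clec9a was 1.52 without a pseudocount. With 1 array left out, Clec9a lay between -0.16 and 0.01, Il10 between -0.17 and 0.04 and Il12a between -0.04 and 0.05.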
